A study of Mus musculus with 4 samples.

Results

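The fatty acid-binding proteins Fabp7, Fabp5, Fabp3 and Fabp4 were examined on 4 microarrays of mouse ventral midbrain, 2 of them from mice with REV-ERBα (wild type, WT) and 2 from mice in which its gene, Nr1d1, is knocked out (RKO). The 4 genes were chosen by symbol with their log2 intensities in this same contrast of RKO against WT already known, so their differences between the groups are given as descriptions and not as tests. They were found on the array by their gene symbols among 19938 genes, with 6 probe sets annotated to 1 of them alone, and the brightest probe set, by its mean across the arrays, stood for each gene. Both groups were male, on a C57BL/6J background and 10 to 15 weeks old. All had been entrained for more than 10 days to 12 h of light per day and then spent 2 days in constant darkness before tissue was taken on the third day. Which part of Nr1d1 was removed, the hour at which each mouse was killed and the number of mice behind an array are not given in the sources used here.

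Fatty acid-binding proteins are small cytosolic proteins that hold long-chain fatty acids in a barrel-shaped pocket and carry them between membranes, enzymes and nuclear receptors. Fabp7, the brain type, marks radial glia in the embryo and astrocytes, Bergmann glia and some precursor cells in the adult, and prefers polyunsaturated fatty acids such as docosahexaenoic acid. Fabp5, the epidermal type, is found in neurons, glia and endothelium. Fabp3, the heart type, is the form of adult neurons and of striated muscle, and Fabp4, the adipocyte type, is found in fat cells, macrophages and some endothelium. Both Fabp5 and Fabp7 also carry endocannabinoids, and members of the family deliver ligands to the PPAR receptors. In mouse brain Fabp7 transcript is known to cycle over the day, and the gene has been described as a target that REV-ERBα represses. REV-ERBα binds the half-site AGGTCA, alone behind a stretch rich in A and T (the ROR element) or as a direct repeat, and represses transcription there.

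The sequences before the start sites of Fabp7 and Fabp3 are shown because the protein missing in RKO acts by binding DNA. Of the 4 members these 2 were matched in the RefSeq promoter table used here, and Fabp5 and Fabp4 were not. They are the 250 bases that precede the start in RefSeq (GRCm38.p6, + strand, 5′ to 3′), at chr10:57784673-57784922 for Fabp7 and chr4:130308488-130308737 for Fabp3. Capitals mark every match to the motifs searched.
Fabp7: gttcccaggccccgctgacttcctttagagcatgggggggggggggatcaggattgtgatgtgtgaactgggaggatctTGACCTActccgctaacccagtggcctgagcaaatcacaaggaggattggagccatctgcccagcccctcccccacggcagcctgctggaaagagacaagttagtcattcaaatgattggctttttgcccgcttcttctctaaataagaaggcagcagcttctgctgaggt
Fabp3: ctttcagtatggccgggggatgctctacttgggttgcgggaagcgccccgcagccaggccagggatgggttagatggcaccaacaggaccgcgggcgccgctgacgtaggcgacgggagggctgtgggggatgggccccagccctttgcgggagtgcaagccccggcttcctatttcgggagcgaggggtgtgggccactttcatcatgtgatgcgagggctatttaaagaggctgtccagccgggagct
The motifs were the half-site AGGTCA, the longer TAGGTCA, which contains it, the direct repeat AGGTCANNAGGTCA, which contains it as well, and the E-box CACGTG, each on both strands. The Fabp7 window held 1 TAGGTCA, read on the opposite strand as TGACCTA, whose first base lies 171 bases before the start site. The adjoining ctccgc, which precedes the motif when read on its own strand, is not a stretch rich in A and T. The Fabp7 window held no direct repeat and no E-box, and the Fabp3 window held no match to any of these motifs. TAGGTCA was present in 2.24% of 32817 windows of the same length and AGGTCA in 14.0%. The direct repeat was found in 3 windows and CACGTG in 6.02%. A match in these letters is a description and does not show that a factor binds there.

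The arrays held 1 normalized intensity per probe set. Expression was compared with limma, a linear model across genes, on log2 intensities of the 13587 genes whose mean lay above the 40th percentile of all probe sets (an intensity of 167). Genes with a Benjamini-Hochberg adjusted p under 0.05 are said to have risen or fallen. Counts at an unadjusted p under 0.05 are given for lists below, and 1739 of all 13587 tested genes reached it in limma. Pearson's r between arrays over all probe sets was 0.993 between the WT arrays, 0.996 between the RKO arrays and 0.993 to 0.995 across groups. The median intensity over the tested genes was 540 in RKO replicate 1 and 559 in each of the other arrays. Nr1d1, the gene knocked out, read 2897 and 3099 on the WT arrays against 1259 and 1229.7 on the RKO arrays. Whether its probe set lies in the deleted part is not known. With 2 arrays in each group, an exact two-sided permutation test of a single gene cannot go below p = 0.333.

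Fabp7 was the member with the clear difference between the groups. Its probe set read 6539 and 6744 on the WT arrays against 12776 and 12077 on the RKO arrays. Both RKO arrays lay far above both WT arrays, with no overlap. The mean was 6642 ± 145 (SD, n = 2) in WT and 12426 ± 494 (SD, n = 2) in RKO, a ratio of 1.87 (log2 difference 0.90, SE 0.0581). Taken array by array, RKO stood 1.79 to 1.95 times above WT. On the log2 scale the WT arrays were 0.045 and the RKO arrays 0.081 apart, against a gap of 0.84 between the lowest RKO and the highest WT array. Leaving out any 1 array gave differences of 0.86 to 0.94. In bulk tissue a change in the number of Fabp7-expressing cells and a change in the RNA per cell cannot be told apart. The array carried 1 probe set for Fabp7, and the difference holds for the unknown hour of collection alone.

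Fabp5 lay in the opposite direction, with a much smaller difference. Intensities of 1371 and 1262 on the WT arrays stood against 1099 and 1142 on the RKO arrays. Both RKO arrays were below both WT arrays, but the lower WT array was close to the higher RKO array. The log2 difference was -0.23 (SE 0.0614), a level 1.17 times higher in WT, and the gap of 0.14 between the groups was little wider than the 0.12 between the WT arrays. A second probe set annotated to Fabp5 read 1233 and 1142 in WT and 989 and 1033 in RKO, with the same difference of -0.23. The arrays stood in the same order in both probe sets, WT replicate 1 highest and RKO replicate 1 lowest. Both are annotated with the same transcripts, and RefSeq lists a Fabp5 pseudogene, Fabp5l2. Whether the probe sets detect Fabp5 alone cannot be told from the table. Leaving out WT replicate 1 brought the Fabp5 difference to -0.17, and leaving out WT replicate 2 brought it to -0.29.

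Fabp3 differed little between the groups. It read 1107 and 1106 on the WT arrays against 1051 and 1045 on the RKO arrays. The RKO arrays were the lower ones, by a small amount (log2 difference -0.078, SE 0.0545). The second probe set of Fabp3 read 1089 and 1055 on the WT arrays against 999.9 and 1039.5 on the RKO arrays, a difference of -0.072. Replicates of the first probe set lay very close together (log2 SD 0.00118 in WT and 0.0064 in RKO), while those of the second were wider apart. With each array centred on its median the Fabp3 difference was -0.054. RefSeq also lists a Fabp3 pseudogene, Fabp3-ps1, on chromosome 10. Whether either probe set, the chosen brighter one included, detects Fabp3 alone cannot be told from the table.

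Fabp4 was not measured above the filter. The WT arrays read 56.4 and 56.1 and the RKO arrays 65.1 and 59.2, all below the filter's 167, and the table gives no detection call. The difference of 0.14 (SE 0.0688, from the fit without the filter) rested largely on RKO replicate 1, and it was 0.075 without that array and 0.21 without RKO replicate 2.

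**Figure D1:**
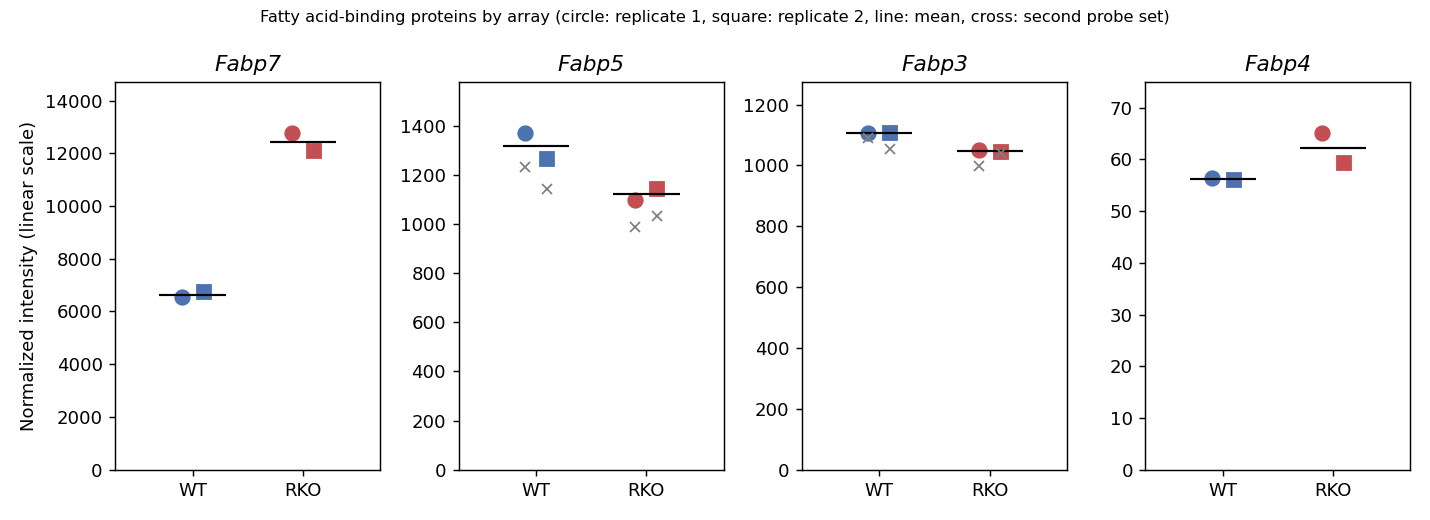
Normalized intensity (linear axis from 0, a scale of its own for each gene) of the 4 fatty acid-binding protein genes in the WT and RKO arrays, with 1 point per array, a line at the group mean and crosses for the second probe set of Fabp5 and Fabp3. Fabp7 stood at 6539 and 6744 in WT and at 12776 and 12077 in RKO, while the other 3 genes differed by 0.23 or less on the log2 scale.

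Of the 4 members 3 were above the filter and 1, Fabp4, was below it. Among these 3 Fabp7 passed the call that 0.640% of all tested genes passed as higher in RKO, and 0 passed as lower, which 0.964% of tested genes did. Groups did not overlap for all 3, as for 41.8% of tested genes. Fabp4 did not overlap either, as for 37.5% of the 6351 genes below the filter. The contrast was known when the members were named, so nothing is read from these counts.

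The members lie on 3 chromosomes, none of them that of Nr1d1 (chromosome 11): Fabp7 on 10, Fabp3 on 4, and Fabp5 and Fabp4 on 3. In RefSeq, Fabp5, Pmp2, Fabp9, Fabp4 and Fabp12 follow each other on chromosome 3 with no other protein-coding gene between them. The members of this cluster did not share a direction. Fabp5 stood at -0.23 and Pmp2, the fatty acid-binding protein of peripheral myelin, at -0.025 (SE 0.0999), while Fabp9 of the testis stood at 0.26 (SE 0.0747) and Fabp12 at 0.19 (SE 0.0664). Intensities of the 4 neighbours of Fabp5 ran from 51.2 to 73.4, below the filter on every array, so Fabp5 was the 1 gene of this cluster above the filter.

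Most of the rest of the family was dim in this tissue. Of 10 further intracellular lipid-binding protein genes on the array, 8 were below the filter and 0 of the 2 tested passed (limma; 1 had an unadjusted p under 0.05). Crabp1, a retinoic acid-binding protein, was at 316 and 321 in WT and 371 and 336 in RKO (difference 0.15, SE 0.0627, adjusted p = 0.351). Rbp2, a retinol-binding protein, had a difference of 0.15 (SE 0.0777) with overlapping groups. Both rested on single arrays: Rbp2 ran from 0.044 without WT replicate 1 to 0.25 without WT replicate 2, and Crabp1 from 0.076 without RKO replicate 1 to 0.22 without RKO replicate 2. Among the genes below the filter Crabp2, which carries retinoic acid to its receptor, was at 158 and 191 in WT and 139 and 136 in RKO (difference -0.34, SE 0.0955). Fabp1 of liver (-0.00077), Fabp2 of intestine (0.12), Fabp6 of ileum (0.034) and Rbp7 (0.14) had overlapping groups. No other gene of the family, measured or dim, approached the difference of 0.90 seen for Fabp7.

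**Figure D2:**
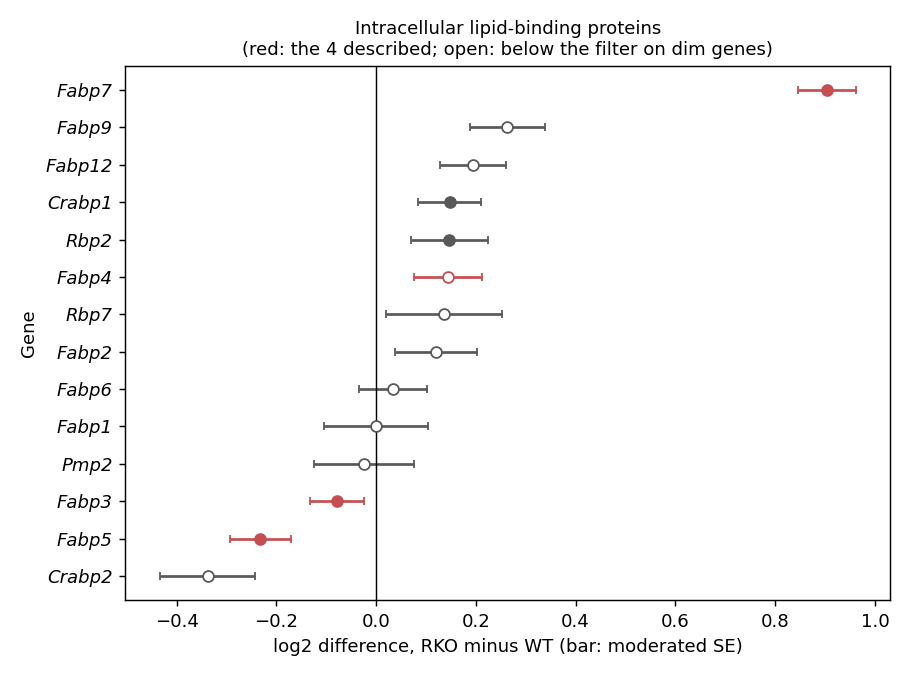
Log2 difference between RKO and WT (horizontal axis, bars are moderated standard errors) for the 4 members in red and 10 other intracellular lipid-binding protein genes in grey, with open symbols for genes below the filter. Fabp7 stands alone at 0.90, and all other genes lie between -0.34 and 0.26.

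The genes whose 4 log2 values, each centred on the gene's own mean, lay nearest to those of Fabp7 were Etnppl, Ednrb, Spon2, Car14 and Th, at Euclidean distances of 0.0745, 0.146, 0.156, 0.179 and 0.194 over 4 arrays. Etnppl, a phospholyase that breaks down phosphoethanolamine and is found in astrocytes, read 971 and 994 in WT against 1808 and 1836 in RKO. Ednrb, an endothelin receptor, was at 1323 and 1344 in WT and 2431 and 2644 in RKO. Spon2, a secreted matrix protein, had a difference of 0.82, Car14, a membrane carbonic anhydrase, one of 0.87, and Th, the first enzyme of dopamine synthesis, one of 0.72. Every one of these 5 genes had both RKO arrays above both WT arrays, with differences of 0.72 to 0.93 beside 0.90 for Fabp7. At such small distances both features follow from the choice of the genes by nearness. With 2 groups of 2 arrays such likeness is mostly likeness in the size of the group difference, and no test goes with it.

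**Figure D3:**
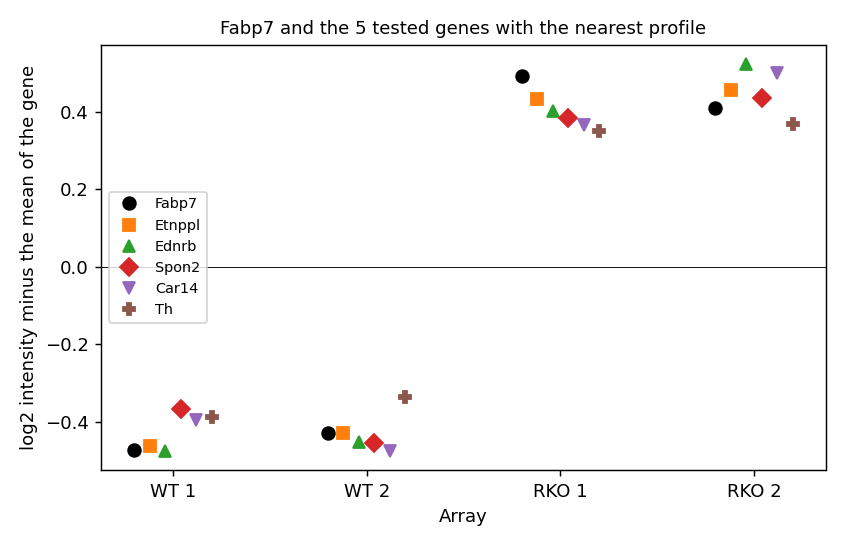
Log2 intensity minus the gene's own mean (vertical axis) in each of the 4 arrays for Fabp7 (black circles) and the 5 tested genes with the nearest values. The 6 genes form a low set in both WT arrays and a high set in both RKO arrays, with Fabp7 the one gene whose RKO replicate 1 is clearly above RKO replicate 2.

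Genes that work with fatty acid-binding proteins were examined in 9 lists, in which 105 tested genes were counted once each. Of these, 1 rose, 2 fell and 102 did not pass. The share called, 2.86%, stood beside 1.60% of all tested genes, and the median difference was -0.017 against -0.012. The number called ran from 1 to 14 among the alternative fits, and Elovl2 was the 1 gene called in all of them. The 14 came from a block that crossed the replicate numbers (the crossed block). That block was added after seeing the data, and the labels warrant no such pairing, so little weight falls on calls under it. Among the planned fits the highest number was 11.

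Enzymes that desaturate and elongate fatty acids, some of which make the polyunsaturated ligands of Fabp7, included 1 gene that fell. Elovl2, the elongase needed for docosahexaenoic acid, fell from 493 and 470 in WT to 332 and 334 in RKO (log2 difference -0.53, SE 0.0565, adjusted p = 7.74e-04 in limma). Of 13 tested genes 1 fell, 0 rose and 12 did not pass, with a median of -0.070. In limma 5 of the 13 had an unadjusted p under 0.05. Values below 0 were found for 9 of the 13, and for 7715 of all 13587 tested genes. The desaturases Fads1 (-0.23, adjusted p = 0.0769), Fads2 (-0.20, adjusted p = 0.119) and Scd1 (-0.24, adjusted p = 0.0735) and the elongase Elovl7 (-0.27, adjusted p = 0.0606) did not pass. Their groups did not overlap, which was also so for 12 of the 13 tested genes of this list and for 41.8% of all tested genes. With the 60th percentile filter, an intensity trend in the variance model or the block by crossed replicate numbers 5 genes of this list were called lower, Elovl2 with these 4. Elovl7 also passed with the replicate block (adjusted p = 0.0383) and with an offset of 16 before log2 (adjusted p = 0.0434).

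No gene of acyl-CoA handling, fatty acid uptake or fatty acid oxidation passed. Dbi, the acyl-CoA-binding protein, was at 4941 and 4895 in WT and 5847 and 5701 in RKO (difference 0.23, SE 0.0551, adjusted p = 0.0735), and Acot2, a mitochondrial thioesterase, had a difference of 0.17. Dbi passed as higher in RKO with the 60th percentile filter (adjusted p = 0.0170), the intensity trend (adjusted p = 2.59e-06) and the crossed block (adjusted p = 0.0126), and missed the threshold in the other alternatives. Of 9 tested genes of fatty acid activation limma called 0 (2 had an unadjusted p under 0.05), with a median of 0.031. Of 7 tested genes of uptake 0 passed (1 at that p) and the median was -0.016. Apoe, the main lipid carrier of astrocytes, stood at 0.14 (adjusted p = 0.314, and 0.00401 with the intensity trend) and the fatty acid transport protein Slc27a4 at -0.076. Cd36 was below the filter. Of 20 tested genes of fatty acid oxidation 0 passed (2 at that p), with a median of -0.036. The thiolase Acaa2 stood at -0.19 (adjusted p = 0.155) and the short-chain dehydrogenase Acads at 0.17 (adjusted p = 0.313). Acaa2 passed with the intensity trend (adjusted p = 0.0483). Leaving out 1 array moved Acads to between 0.095 and 0.25, Slc27a4 to between -0.12 and -0.036 and Acot2 to between 0.11 and 0.22.

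**Figure D4:**
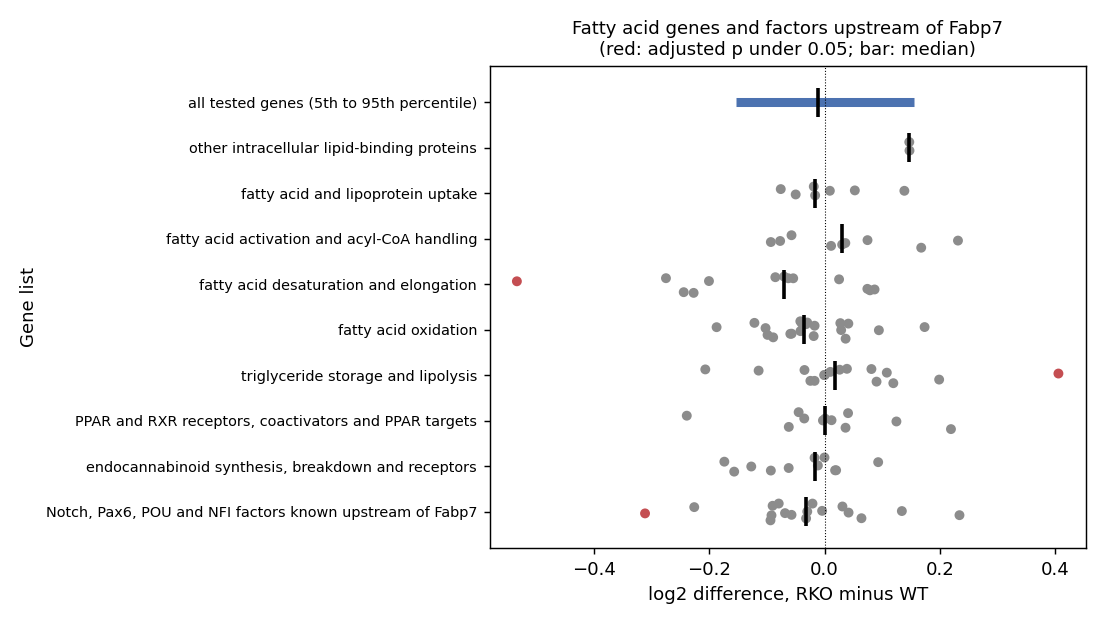
Log2 difference between RKO and WT of each tested gene in the 9 lists around fatty acid-binding proteins (points, red where the adjusted p was under 0.05), with the median of each list as a bar and the 5th to 95th percentile of all tested genes (-0.15 to 0.15) in blue. Only Elovl2, Plin4 and Hey2 are red, and the list medians stay between -0.070 and 0.15.

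In triglyceride storage and lipolysis 1 of 16 tested genes rose, 0 fell and 15 did not pass, with a median of 0.018. In limma 2 of the 16 had an unadjusted p under 0.05. The gene that rose was Plin4, a coat protein of lipid droplets, from 221 and 239 in WT to 313 and 296 in RKO (difference 0.41, SE 0.0616, adjusted p = 0.00697). Its call was lost without RKO replicate 1 (adjusted p = 0.110), with no filter (adjusted p = 0.138) and with median centring (adjusted p = 0.058). Plin5 (0.20) and Cideb (-0.21), both of lipid droplets, did not pass. Plin5 passed without WT replicate 2 (0.42, adjusted p = 0.00673) and was at -0.022 without WT replicate 1, Cideb was at -0.10 without RKO replicate 1, and both passed with the crossed block (adjusted p = 0.0482 and 0.0362). The PPAR receptors, which take fatty acids from these binding proteins, stood at -0.062 (Ppara), -0.045 (Ppard) and -0.0027 (Pparg). Of 11 tested genes of the PPAR and RXR list limma called 0 (2 had an unadjusted p under 0.05), with a median of 0.00101. The receptor partner Rxrg stood at -0.24 (adjusted p = 0.0999) and Angptl4, a PPAR target, at 0.22 (adjusted p = 0.112), and both passed with the crossed block (adjusted p = 0.00893 and 0.0218). Of 11 tested genes of endocannabinoid synthesis, breakdown and reception 0 passed (3 at that p), with a median of -0.017. The lowest were Dagla, which makes 2-arachidonoylglycerol (-0.17), Napepld, which makes anandamide (-0.16), and Faah, which breaks anandamide down after its delivery by fatty acid-binding proteins (-0.13).

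In a list built around factors known to act upstream of Fabp7 in neural precursors, with further Notch pathway genes, the 1 gene that passed was lower in RKO. Of 17 tested genes of the Notch pathway and the Pax6, POU and NFI families 1 fell, 0 rose and 16 did not pass, with a median of -0.032. Hey2, a Notch effector, fell from 352 and 325 in WT to 269 and 277 in RKO (difference -0.31, SE 0.0606, adjusted p = 0.0287). The call of Hey2 was lost without WT replicate 1 (adjusted p = 0.175), RKO replicate 1 (adjusted p = 0.249) or RKO replicate 2 (adjusted p = 0.105), with no filter (adjusted p = 0.236) and with median centring (adjusted p = 0.109). Another Notch effector, Hes1, stood at 0.23 (adjusted p = 0.0907) and Pax6 at -0.23 (adjusted p = 0.0953). Pax6 passed with the 60th percentile filter (adjusted p = 0.0260), the intensity trend (adjusted p = 0.0390) and the crossed block (adjusted p = 0.0162), and Hes1 with the crossed block (adjusted p = 0.0112). Rbpj, the DNA-binding protein of the Notch pathway, stood at -0.021, and Pou3f2 at 0.13 (adjusted p = 0.353).

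Cells that are known to contain the members were followed by their markers. Astrocyte genes lay on both sides of 0, 6 above and 7 below. Of 13 tested genes 0 rose, 2 fell and 11 did not pass, with a median of -0.049. In limma 6 of the 13 had an unadjusted p under 0.05. The summed intensity was 39844 to 40755 in WT and 40392 to 40514 in RKO. The bright genes Aldoc (difference 0.053), Glul (0.019) and Slc1a2 (0.049) weighed most in this sum. The 2 that fell were Gfap, the filament protein of astrocytes (difference -0.51, SE 0.0591, adjusted p = 0.00136), and the folate enzyme gene Aldh1l1 (-0.31, adjusted p = 0.0416). Gfap lost its call with no filter (adjusted p = 0.058). Aldh1l1 lost it there too (adjusted p = 0.278), with median centring (adjusted p = 0.109) and without WT replicate 1 (adjusted p = 0.129), WT replicate 2 (adjusted p = 0.0505) or RKO replicate 1 (adjusted p = 0.340). The gap junction protein Gja1 (0.22, adjusted p = 0.0848) was the highest of the list. Gja1 passed as higher in RKO with the 60th percentile filter (adjusted p = 0.0243), the intensity trend (adjusted p = 2.14e-04) and the crossed block (adjusted p = 0.0219). Another gap junction gene of the list, Gjb6, lay lower in RKO (-0.18, adjusted p = 0.193) and did not pass. Among 8 tested genes of radial glia and tanycytes, the other cells known for Fabp7, Vim, a filament protein, was the 1 gene that fell (-0.30, SE 0.0577, adjusted p = 0.0266). The other 7 did not pass, and the median was -0.075. In limma 3 of the 8 had an unadjusted p under 0.05. Vim lost its call without WT replicate 1 (adjusted p = 0.102), RKO replicate 1 (adjusted p = 0.241) or RKO replicate 2 (adjusted p = 0.0696), with no filter (adjusted p = 0.210) and with median centring (adjusted p = 0.0691). Nes, Rax and Gpr50 of this list were below the filter. Of the Bergmann glia and cerebellar list 3 genes were tested, Gdf10 (-0.091), Cbln1 (-0.19) and Zic1 (-0.012), and limma called 0 of them (1 had an unadjusted p under 0.05), while Pcp2, Gabra6, Cbln3 and Neurod1 were below the filter. Cbln1 passed with the intensity trend (adjusted p = 0.0249). Gdf10 rested on single arrays, at -0.18 without RKO replicate 1 and -0.0017 without RKO replicate 2.

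Few markers passed among cells known for the other members and the oligodendrocyte, precursor, choroid plexus and ependyma lists. For neurons, which contain Fabp3, limma called 0 of 7 tested genes (0 had an unadjusted p under 0.05), with a median of -0.0076. Endothelial genes, with 0 of 9 passing (2 at that p), had a median of -0.088, and microglia and macrophage genes, with 0 of 6 passing (0 at that p), one of -0.058. In the oligodendrocyte list Opalin fell (-0.30, adjusted p = 0.0446), a call lost without WT replicate 1 (adjusted p = 0.270), RKO replicate 1 (adjusted p = 0.331) or RKO replicate 2 (adjusted p = 0.139), with no filter (adjusted p = 0.286) and with median centring (adjusted p = 0.155). The other 8 of 9 did not pass. All 9 lay below 0 with a median of -0.11. Of 9 oligodendrocyte precursor genes 0 passed (1 at that p), with a median of -0.042. These 9 also lay below 0, as did 7715 of all 13587 tested genes. Of the adipocyte list, cells known for Fabp4, Adipoq and Lep were below the filter and 0 of 3 tested genes passed (1 at that p). Of 5 tested striated muscle genes 0 passed (3 at that p, which 1739 of all 13587 tested genes reached), with a median of 0.16. The highest was Actc1 at 0.28 (adjusted p = 0.103). Actc1 was at 0.17 without RKO replicate 1, and it passed without RKO replicate 2 (0.39, adjusted p = 0.0448), with the intensity trend (adjusted p = 0.0313) and with the crossed block (adjusted p = 0.00103). Of 7 choroid plexus and ependyma genes 0 passed (1 at that p), with a median of 0.037.

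Of the 13 marker lists, those with the most called genes were leptomeninges and dopamine neurons. Leptomeningeal genes lay mostly lower in RKO: of 9 tested 6 fell, 0 rose and 3 did not pass, with a median of -0.49. In limma 8 of these 9 had an unadjusted p under 0.05, with Col1a1 among them higher in RKO. Summed over the 10 genes, the WT arrays read 5331 and 5417 and the RKO arrays 4076 and 4132. Ogn, a proteoglycan of connective tissue, was the lowest at -1.11 (SE 0.0664), while the collagens Col1a1 (0.13) and Col1a2 (0.069) did not pass. Lum was below the filter. Dopamine neuron genes all lay higher: of 7 tested 4 rose, Th, Slc18a2 (0.42), Ddc (0.34) and Slc6a3 (0.33), and 3 did not pass. All 7 had an unadjusted p under 0.05 in limma. Summed over the 7 genes, the WT arrays read 10922 and 11257 and the RKO arrays 14629 and 14938. Without RKO replicate 1 or RKO replicate 2 only 2 of them were called, without WT replicate 1 there were 3, and with no filter 1 dopamine neuron gene and 3 leptomeningeal genes were left. The part of these markers in the values of Fabp7 and Fabp5 was not tested.

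**Figure D5:**
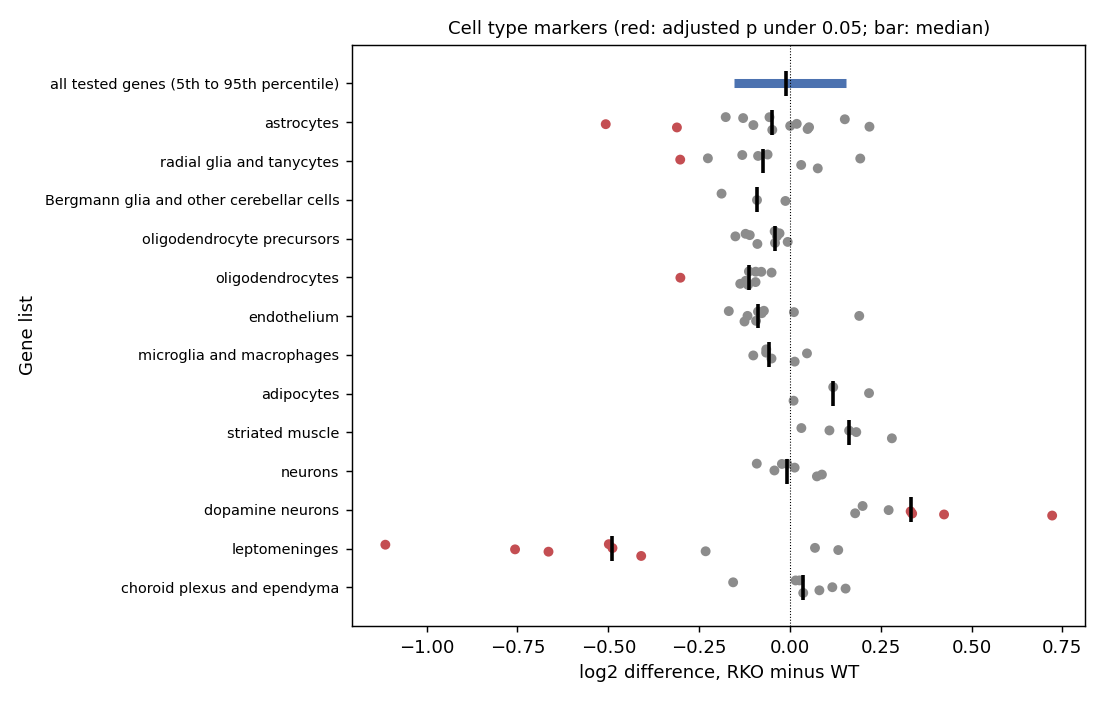
Log2 difference between RKO and WT of each tested marker gene by cell type (points, red where the adjusted p was under 0.05), with list medians as bars and the 5th to 95th percentile of all tested genes in blue. Leptomeningeal genes lie to the left (median -0.49) and dopamine neuron genes to the right (median 0.33), while astrocyte genes spread around 0 from -0.51 to 0.22.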

How the data were processed

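Total RNA of mouse ventral midbrain was measured on 4 Affymetrix gene arrays, 2 per group. The authors deposited 1 normalized intensity per probe set on a linear scale, as the values show (6.51 to 21034.5). The submitters' processing notes name GCOS and RMA and give no version or setting. Here log2 was taken of these intensities, adding no pseudocount. Symbols came from the platform annotation: of 35556 probe sets 21789 had 1 symbol, 1621 had several and 12146 were unnamed here, and only the first kind was used. Each gene was represented by its probe set with the highest mean, and 6351 genes below the 40th percentile were left out.

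RKO was compared with WT over the whole table in limma 3.58.1 (lmFit, eBayes; R 4.3.3), two-sided, with no covariate and Benjamini-Hochberg adjustment. Standard errors (SE) are moderated, on 2 residual and 8.73 prior degrees of freedom. The fit was tested on simulated data. The number of arrays limits the precision. The labels call the replicates biological; at most 5 intensities were identical between any 2 arrays. Members and lists were chosen with earlier results of these data known. The text names, beside the members, their family and the 5 genes nearest to Fabp7. From the lists of fatty acid genes and upstream factors it names the called genes, the 2 largest other differences and a few further members. From the cell marker lists it names only some genes, and not all of those called. The further members and the markers named were chosen after their values were seen. RefSeq (GRCm38.p6) gave the promoters and the order of genes.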

Additional observations from a re-analysis of the deposited data

How the results depend on the processing

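The 218 changed genes became 31 with no filter on dim probe sets, 106 with median centring, 499 with an intensity trend, and 77 to 287 when 1 array was left out (77 without RKO replicate 1, 109 without RKO replicate 2). The stricter filter gave 296, the mean of a gene's probe sets 232 and an offset of 16 before log2 gave 260. The filters, the intensity trend and the blocks cannot change a member's difference, and with 2 arrays a group, leaving out 1 cannot move it by more than the replicate SD, so neither shows stability. Without 1 array the difference was 0.86 to 0.94 for Fabp7, -0.29 to -0.17 for Fabp5, -0.083 to -0.074 for Fabp3 and 0.075 to 0.21 for Fabp4, and median centring brought Fabp3 to -0.054. The labels warrant no block by replicate number, since arrays of different groups share only that number: deviations of same-numbered arrays correlated at -0.11, the replicate block gave 259 calls, and crossed pairing, added after seeing the data, gave 696. For 65 other genes 757 values were computed. These were Nr1d1, the tested family genes, the called genes and 2 largest other differences of each list, and the genes nearest to Fabp7. Of the values 680 kept direction and call, 38 lost the call, 38 gained one and 1 reversed. The reversed value was that of Plin5, which ran from -0.022 without WT replicate 1 to 0.42 without WT replicate 2. The causes were not tested. No alternative removes the limit of 2 arrays per group, and an intensity carries no count from which depth could be read.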
